A study of Mus musculus with 76 samples.

Results

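The 7 genes described here encode 4 epithelial serine proteases (Tmprss11e, St14, Prss8 and Prss22) and 3 proteins of protease inhibitor families (Spint1, Spint2 and Wfdc2), out of 55536 genes in the count table. They were picked by name because Tmprss11e, Wfdc2 and Spint2 separated 4T1 from CT26 tumors in these data, so the difference between the lines is given as a description without a test. The tumors were 38 whole subcutaneous flank tumors of female Balb/c mice aged 6 to 12 weeks, each sequenced as 2 technical libraries that were summed. CT26, a chemically induced colon carcinoma line, had 5 tumors given alum and 6 given CAT-ABP + alum, and 4T1, a mammary carcinoma line, likewise had 5 and 6. 4T1-CAT cells carried a lentiviral cassette, inducible by doxycycline (DOX), for human catalase and GFP, and had 5 tumors with alum and 5 with CAT-ABP + alum. The 6 4T1-control tumors carried GFP alone and received alum. Catalase breaks down hydrogen peroxide, and CAT-ABP is the enzyme joined to an alum-binding peptide that keeps it at the injection site, termed extracellular (EC) CAT below, with the cell-made enzyme termed intracellular (IC) CAT. Every tumor thus received 100 ug alum, with 20 ug CAT-ABP where given, on day 6 and was taken on day 8, and only the 4T1-CAT and 4T1-control mice ate DOX, from day 4. These days are those of the labels, and the study's methods place each step a day later. The transduced lines were puromycin-selected and GFP-sorted, the human transgene was not measured, and no untransduced 4T1 tumor on DOX was analysed here.

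Trypsin-like proteases of epithelia sit at the cell surface and are held in check by Kunitz-domain inhibitors on the same cell. St14 (matriptase) spans the membrane and activates Prss8 (prostasin), which is held by a lipid anchor, and Spint1 and Spint2 are the membrane-bound Kunitz inhibitors of matriptase and related enzymes. Tmprss11e (DESC1) is another type II transmembrane serine protease, Prss22 is a tryptase of airway and other epithelia, and Wfdc2 (HE4) is a secreted WAP-domain protein that is abundant in several carcinomas. The cascade is known for its part in epithelial barrier formation, in the cleavage of the epithelial sodium channel and in the activation of hepatocyte growth factor, the ligand of the receptor Met.

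The 4 proteases share the coding stretch around the catalytic serine, which is shown because it marks all 4 as enzymes of 1 catalytic family. Each run holds 30 coding bases of the longest complete GENCODE M21 coding sequence, 5′ to 3′, with the serine codon in capitals.
Tmprss11e: tgccagggtgacTCGggaggtccacttgtt
St14: tgccagggtgacTCTggtggccccttgtca
Prss8: tgccagggtgacTCTgggggcccactctct
Prss22: tgtctgggcgacTCTgggggtcccctgatg
The serine codon was TCT in St14, Prss8 and Prss22 and TCG in Tmprss11e. It started at coding base 1117 of 1272 in Tmprss11e, 2413 of 2568 in St14, 712 of 1020 in Prss8 and 724 of 924 in Prss22. No such stretch was found in the coding sequences of the 3 inhibitors.

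RefSeq promoter windows (build GRCm38.p6) were matched for 3 of the 7 genes (Spint1, Spint2 and Wfdc2) and not for Tmprss11e, St14, Prss8 and Prss22. They are shown because all 7 genes were low in CT26, where some repressors that bind the E-box CAGGTG were higher, as described later. The windows were searched on both strands for CAGGTG, which reads CACCTG on the other strand, and for the Grainyhead-like motif AACCGGTT. Capitals mark CAGGTG or CACCTG. The Spint1 and Spint2 runs lie before the annotated gene, whereas the Wfdc2 run lies inside the annotated gene, within the span of a noncoding transcript and before the protein-coding ones.
Spint1, chr2:119237110-119237359, plus strand: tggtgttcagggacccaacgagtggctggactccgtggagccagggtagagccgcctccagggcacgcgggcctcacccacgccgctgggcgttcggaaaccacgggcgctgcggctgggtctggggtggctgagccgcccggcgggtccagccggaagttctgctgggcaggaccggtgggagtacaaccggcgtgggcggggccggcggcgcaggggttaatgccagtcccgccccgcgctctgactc
Spint2, chr7:29281978-29282227, minus strand: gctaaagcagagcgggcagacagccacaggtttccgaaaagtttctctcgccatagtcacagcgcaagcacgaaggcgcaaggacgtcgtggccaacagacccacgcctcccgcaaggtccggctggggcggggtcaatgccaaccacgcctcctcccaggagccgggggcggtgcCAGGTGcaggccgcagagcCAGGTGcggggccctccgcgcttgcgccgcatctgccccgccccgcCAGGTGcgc
Wfdc2, chr2:164562465-164562578, plus strand: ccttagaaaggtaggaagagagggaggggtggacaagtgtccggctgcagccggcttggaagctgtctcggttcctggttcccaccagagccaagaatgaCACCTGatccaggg
Over the full windows of 300 bases, the E-box occurred 3 times in Spint2, 2 times in Wfdc2 and 0 times in Spint1. At least 1 copy was present in 5413 of 27025 promoter windows of this length (20.0%). AACCGGTT was in none of the 3 windows and in 41 of 27025 (0.152%).

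By the GENCODE M21 annotation of GRCm38, Tmprss11e (ENSMUSG00000054537) lies on chr5:86705186-86745815, St14 (ENSMUSG00000031995) on chr9:31089402-31131853, Prss8 (ENSMUSG00000030800) on chr7:127925716-127930104 and Prss22 (ENSMUSG00000045027) on chr17:23993534-23998100, all on the minus strand. Spint1 (ENSMUSG00000027315) lies on chr2:119237362-119249527 and Wfdc2 (ENSMUSG00000017723) on chr2:164562413-164568510, both on the plus strand, and Spint2 (ENSMUSG00000074227) on chr7:29256323-29281912, on the minus strand. Prss8 overlaps the opposite-strand gene Kat8, which held 26498 counts over the series against 1195 for Prss8. St14 and Tmprss11e also overlap opposite-strand genes, with 14 counts for the partner of St14 and 111 and 360 for those of Tmprss11e. Whether the counting used strand is not given in the sources used here, so reads of these pairs may not be separable.

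Tumor totals ranged from 493044 to 9077549 estimated counts, and the shallowest tumor, 4T1-control replicate 2, held 2 counts of St14. Levels below are CPM, the counts divided by a library size that edgeR scales by the trimmed mean of M-values, and since the libraries count transcript 3′ ends, levels were compared between tumors and not between genes. In whole tumors, fewer cells of a type and less RNA per cell cannot be told apart. All 12 epithelial markers examined (Epcam, Cdh1, keratins, claudins and others) had counts in every 4T1-derived group, and their sum ran from 2066 to 2938 CPM in 4T1 and from 41.5 to 87.3 CPM in CT26 tumors given alum. Cldn7 was at 0 in the CT26 alum group. The index layout of the libraries differed between groups: CT26, the 4T1 tumors given CAT-ABP and 2 of the 4T1 alum tumors shared a first index, and the other 3 4T1 alum tumors shared theirs with the transduced lines. Also, 2 libraries of 4T1-CAT alum tumors (replicates 2 and 3) were listed with the same index tag, but they differed by a chi-square of 13.2 per gene, against 3.90 to 7.34 between the technical libraries of 1 tumor.

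All 7 genes were higher in 4T1 than in CT26. In CT26, 5 of them were near the detection limit, while Spint2 had 17 to 38 counts and Wfdc2 6 to 23 counts in each alum tumor. With alum alone, no CT26 tumor reached the lowest 4T1 tumor for any of the 7, and 2068 of 12817 genes (16.1%) were likewise higher in 4T1 without overlap. With CAT-ABP + alum the count was again 7 of 7, where 1371 of 13016 genes (10.5%) did the same. These counts use the contrast that chose the genes and are given for scale only.

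**Figure D1:**
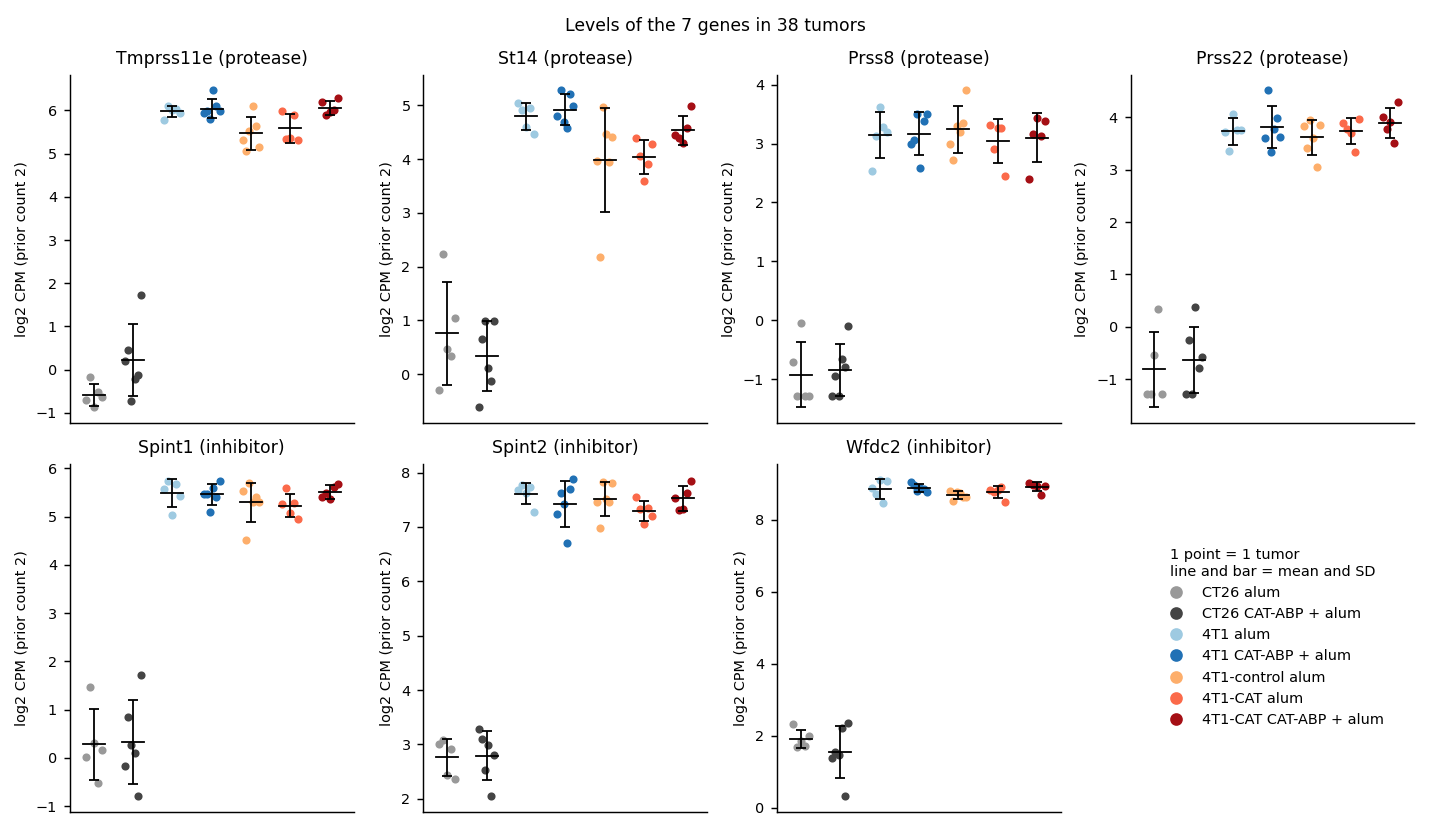
Level of each gene in each of 38 tumors, as log2 CPM with a prior count of 2 on the vertical axis. Points are tumors, colored by group, and the line and bar are the group mean and SD; both CT26 groups sit below all 5 groups of 4T1 origin, except that for St14 CT26 alum replicate 2 (4.27 CPM) is above 4T1-control replicate 2 (4.11 CPM).

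Among the proteases, Tmprss11e was at 0.200, 0.475, 0.139, 0.285 and 0.237 CPM in the 5 CT26 alum tumors, which is 1 count in each. In the 5 4T1 alum tumors it stood at 54.8, 68.7, 64.5, 65.0 and 60.8 CPM. The 4T1 tumors were close together, with an SD of 5.28 CPM around a mean of 62.8, and the log2 difference between lines was 7.93 (SE 0.24). Each SE of a log2 difference, here and below, was back-calculated from the F statistic of the edgeR fit. It is not a direct estimate of spread and may be too small where 1 group held few counts, as CT26 did here. In the tumors given CAT-ABP + alum, Tmprss11e ran from 0.198 through a median of 0.621 to 2.90 CPM in CT26 and from 54.9 through 62.8 to 87.9 CPM in 4T1. The highest CT26 value, in replicate 6, rested on 11 counts.

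St14 was at 0.399, 4.27, 0.974, 0.856 and 1.66 CPM in the CT26 alum tumors and at 32.8, 29.9, 23.8, 30.5 and 21.7 CPM in the 4T1 alum tumors. Replicate 2 of CT26 was above the other 4, on 9 counts, and the log2 difference between lines was 4.33 (SE 0.36). Prss8, the prostasin gene, had 0 counts in 3 of 5 CT26 alum tumors and 0.200 and 0.557 CPM in the others. In 4T1 it was at 5.41, 8.34, 11.9, 9.27 and 8.80 CPM. Prss22 likewise had 0 counts in 3 of 5 CT26 alum tumors, with 0.278 and 0.856 CPM in the rest. Its 4T1 values of 12.8, 9.78, 16.4, 13.1 and 13.2 CPM were all higher. The log2 differences were 5.16 (SE 0.51) for Prss8 and 5.67 (SE 0.48) for Prss22, both against groups that held 5 counts in all.

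The inhibitors followed the same order. Spint1 was at 0.599, 2.37, 0.835, 0.285 and 0.712 CPM in CT26 with alum. In 4T1 with alum its values were 47.0, 53.2, 32.3, 50.4 and 42.7 CPM. Spint2 kept a low level in every CT26 alum tumor (7.59, 8.07, 5.01, 7.13 and 4.74 CPM). In the 4T1 alum tumors Spint2 stood at 204, 219, 196, 211 and 155 CPM. Wfdc2 was at 4.59, 2.85, 3.2, 2.85 and 3.56 CPM in CT26 and at 471, 420, 549, 351 and 541 CPM in 4T1. The 2 inhibitors with the steadiest counts in CT26 had 4T1 levels that were log2 4.93 (SE 0.19) higher for Spint2 and log2 7.04 (SE 0.22) higher for Wfdc2, and Spint1 differed by log2 5.71 (SE 0.31).

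The CT26 level was also expressed as a percent of the 4T1 level. With alum it was 0.426% for Tmprss11e, 0.731% for Wfdc2, 1.73% for Prss8, 1.74% for Prss22, 2.13% for Spint1, 3.31% for Spint2 and 5.88% for St14. Single tumors carried several of these values: without CT26 replicate 2 St14 was at 3.51% and Spint1 at 1.35%, without replicate 3 Prss8 was at 0.571%, and without replicate 4 Prss22 was at 0.533%. With CAT-ABP + alum the order differed, at 0.599% for Wfdc2, 1.44% for Tmprss11e, 1.94% for Prss8, 2.06% for Prss22, 2.42% for Spint1, 3.16% for St14 and 3.83% for Spint2. There, without CT26 replicate 6 Tmprss11e was at 0.857%, Prss8 at 1.13% and Spint1 at 1.59%, and without replicate 4 Prss22 was at 1.21%. With alum, Epcam stood at 0.684%, Krt8 at 0.908% and Krt18 at 1.15%, whereas Krt7 kept 22.0%. The median was 1.74% over the 7 genes and 1.96% over the 12 epithelial markers. With CAT-ABP + alum, the medians were 2.06% and 1.60%. How much of the CT26 signal is carry-over between libraries that share a first index was not tested.

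**Figure D2:**
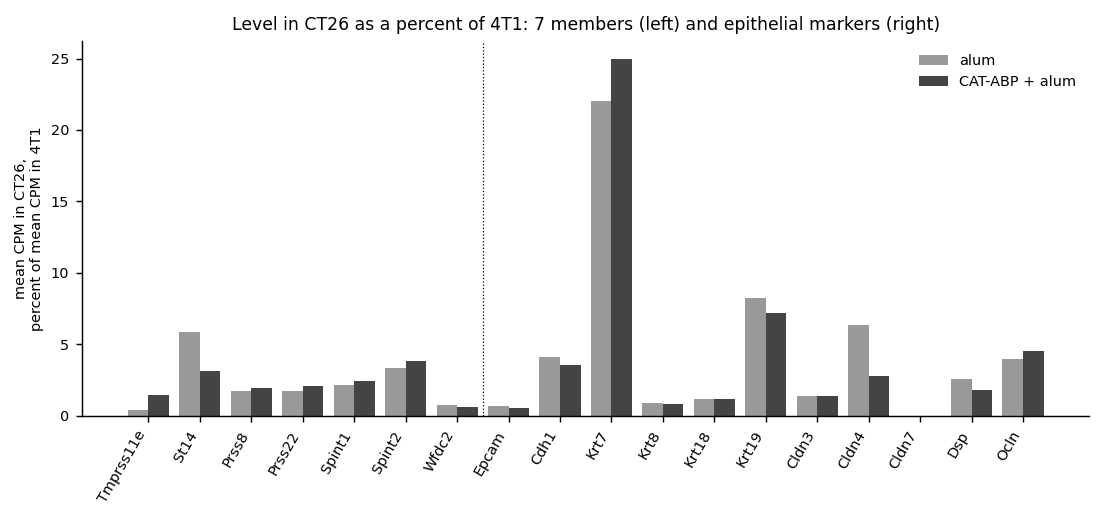
Mean CPM in CT26 as a percent of mean CPM in 4T1, for tumors given alum (light bars) and CAT-ABP + alum (dark bars), with the 7 genes left of the dotted line and 11 of the 12 epithelial markers right of it. The 7 genes range from 0.426% to 5.88% with alum, and Krt7 is the highest bar at 22.0% and 25.0%.

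Of a wider list of 132 other proteases, inhibitors, substrates and epithelial regulators, chosen with earlier results of these data known, 28 passed the filter on low counts between the lines with alum, with 13 higher and 7 lower in 4T1 without overlap. Of all 12817 genes tested, 16.1% were higher and 13.4% lower in this way. The median log2 difference over the 28 was 0.39, against -0.02 over all genes. With CAT-ABP + alum, 28 passed, with 9 higher and 4 lower without overlap, against 10.5% and 11.3% of 13016 genes. None of the other type II transmembrane proteases in the list passed the filter. Tmprss2 was at 0 in every 4T1 alum tumor, Tmprss4 had 8 counts over 5 tumors, and Hpn (hepsin) had 4. Tmprss11e and St14 were therefore the members of that family with usable counts in 4T1. Klk10, a tissue kallikrein, ran the other way, at 2.92 to 3.80 CPM in CT26 and 0 counts in the 5 4T1 tumors, against which its 72 CT26 counts give no fold here.

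Inhibitors outside the 7 moved both ways between the lines with alum. Of 4 tested Kunitz and WAP inhibitors, Slpi and Tfpi2 were higher in 4T1 without overlap and Wfdc17 was lower. Of 7 tested Kazal inhibitors and serpins, Serpinb5, Serpine2 and Spink10 were higher and Serpinb1a and Serpinb6a lower. With CAT-ABP + alum, Wfdc17 and Spink10 were not without overlap, while the other inhibitors named here were, in the same directions. Slpi, another WAP-domain inhibitor, had with alum a mean of 501 CPM ± 211 (SD, n = 5) in 4T1 and 34.7 CPM ± 13.7 in CT26, a log2 difference of 3.84 (SE 0.34). Serpinb5 (maspin) had 13.8 CPM ± 4.25 in 4T1 and 2 counts over the 5 CT26 alum tumors. Plau, the urokinase that activates plasminogen, was also higher in 4T1 without overlap with alum, by a small margin (92.8 CPM ± 3.78 against 69.9 CPM ± 10.7). Among the targets of these enzymes, Epcam, a matriptase substrate, differed by log2 7.37 (SE 0.32). Met differed by only log2 0.39 (SE 0.15) with alum, though without overlap. With CAT-ABP + alum, neither Plau nor Met was without overlap. Scnn1a, the alpha subunit of the epithelial sodium channel, had 0 counts in both lines with alum, and F2rl1, a protease-activated receptor, had 19 counts in 4T1 and 2 in CT26. The epithelial regulators Esrp1 and Grhl2 were higher in 4T1 by log2 5.80 (SE 0.38) and log2 1.02 (SE 0.17). Elf3 had 53 counts in 4T1 and 3 in CT26, and Ovol2 had 37 and 2. Of 9 mesenchymal regulators, 6 were lower in 4T1 without overlap (Cdh2, Snai2, Twist1, Twist2, Zeb1 and Zeb2), against 13.4% of all genes, and Fn1 was higher. With CAT-ABP + alum, 4 were lower without overlap (Cdh2, Snai2, Twist1 and Zeb1), against 11.3% of all genes, and the groups overlapped for Twist2 and Zeb2. Snai2, Zeb1 and Zeb2 encode repressors that bind the E-box shown above, and their part in the levels was not tested.

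The effect of EC CAT was then tested within each line, which addresses whether catalase in the tumor changes these genes. No member was called in any of the comparisons, by the quasi-likelihood test of edgeR, with p-values adjusted by Benjamini-Hochberg over all genes tested, at a threshold of 0.05. The comparisons share tumors: IC CAT, 4T1-control against 4T1 and combined EC and IC CAT share the 4T1-control group, EC CAT in 4T1-CAT shares 1 group each with IC CAT and combined CAT, and EC CAT in 4T1 shares the alum tumors with 4T1-control against 4T1.

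In CT26, 2 of the 7 genes passed the filter on low counts. Spint2 differed by log2 0.07 (SE 0.27) and Wfdc2 by log2 -0.32 (SE 0.38) with EC CAT. Of 12830 genes, 0 were called (0%), 311 (2.42%) had an unadjusted p under 0.05, and DESeq2 called 1. In 4T1 all 7 passed, and the log2 changes lay between -0.15 for Spint2 (SE 0.16) and 0.15 for St14 (SE 0.16). Of 13092 genes, 0 were called by edgeR and by DESeq2, with 377 (2.88%) at an unadjusted p under 0.05 and none of the 7 among them. Wfdc2 moved least, by log2 0.01 (SE 0.15).

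Whether EC CAT acted differently in the lines was tested as an interaction over the 4 groups. Of the members, Spint2 and Wfdc2 had usable counts in both lines. Their difference of effects, CT26 minus 4T1, was log2 0.22 (SE 0.28) for Spint2 and log2 -0.39 (SE 0.34) for Wfdc2, neither at an unadjusted p under 0.05, where 509 of 14160 genes (3.59%) were. The other 5 entered this fit through their 4T1 counts alone, having failed the filter within CT26, and their values are given as a description. For Tmprss11e the difference was log2 1.77 (SE 0.65), on 5 counts in CT26 with alum and 29 counts with CAT-ABP + alum, and it was log2 1.24 without CT26 CAT-ABP + alum replicate 6. The remaining 4 lay between log2 -0.62 (St14) and log2 0.34 (Spint1). Across the 14160 genes, edgeR and DESeq2 each called 0 (0%).

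In 4T1-CAT, all 7 genes had a log2 change above 0 with EC CAT. The median was 0.23, against -0.00066 over all genes, and 49.9% of 13093 genes had a change above 0. Tmprss11e was at 63.0, 39.8, 40.9, 59.5 and 39.7 CPM in 4T1-CAT with alum. With CAT-ABP + alum it was at 72.7, 58.7, 62.1, 63.9 and 77.2 CPM. Of the alum tumors, 3 lay below all treated tumors and 2 lay within their range, so the groups overlapped. The log2 change was 0.45 (SE 0.14), with an adjusted p of 0.196 by the quasi-likelihood test of edgeR (Benjamini-Hochberg) and an unadjusted p of 0.0397 by a two-sided exact permutation test of log2 CPM, whose smallest possible p is 0.00794.

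St14 in the same tumors was at 20.5, 16.4, 11.6, 14.6 and 19.0 CPM with alum and at 21.5, 20.6, 19.2, 23.4 and 31.2 CPM with CAT-ABP + alum. Only the highest alum tumor reached into the treated range, and the log2 change was 0.49 (SE 0.17), with an adjusted p of 0.225 by the quasi-likelihood test of edgeR (Benjamini-Hochberg). Spint1 changed by log2 0.26 (SE 0.13), Spint2 by log2 0.23 (SE 0.12), Prss22 by log2 0.17 (SE 0.19), Wfdc2 by log2 0.14 (SE 0.11) and Prss8 by log2 0.05 (SE 0.23), and the groups overlapped for each. Of the 7, 2 were at an unadjusted p under 0.05, where 2000 of 13093 genes (15.3%) were, 884 of them (6.75%) higher. edgeR called 0 genes (0%) and DESeq2 called 266, with Tmprss11e at an adjusted p of 0.0539 in DESeq2. Treated replicate 5, the highest for both proteases, also held 322 CPM of the 13 epidermis markers, against 30.4 to 50.1 CPM in the other 4 treated tumors. Without that tumor, Tmprss11e changed by log2 0.40 and St14 by log2 0.37, and the part of epidermal RNA in the values was not tested. Several cell type marker lists lay mostly to 1 side of 0 in this contrast. Epithelial markers were above 0 in 9 of 10 cases, with a median of log2 0.25. Fibroblast markers were above 0 in 0 of 8 cases (median log2 -0.42), skeletal muscle in 0 of 8 (-0.71), T cell in 0 of 6 (-0.50) and macrophage in 1 of 8 (-0.19). The summed skeletal muscle markers ran from 309 to 814 CPM with alum and from 222 to 327 CPM with CAT-ABP + alum, and the summed fibroblast markers from 2690 to 5796 CPM and from 2516 to 3259 CPM. The part of tissue composition in the members' changes was not tested.

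**Figure D3:**
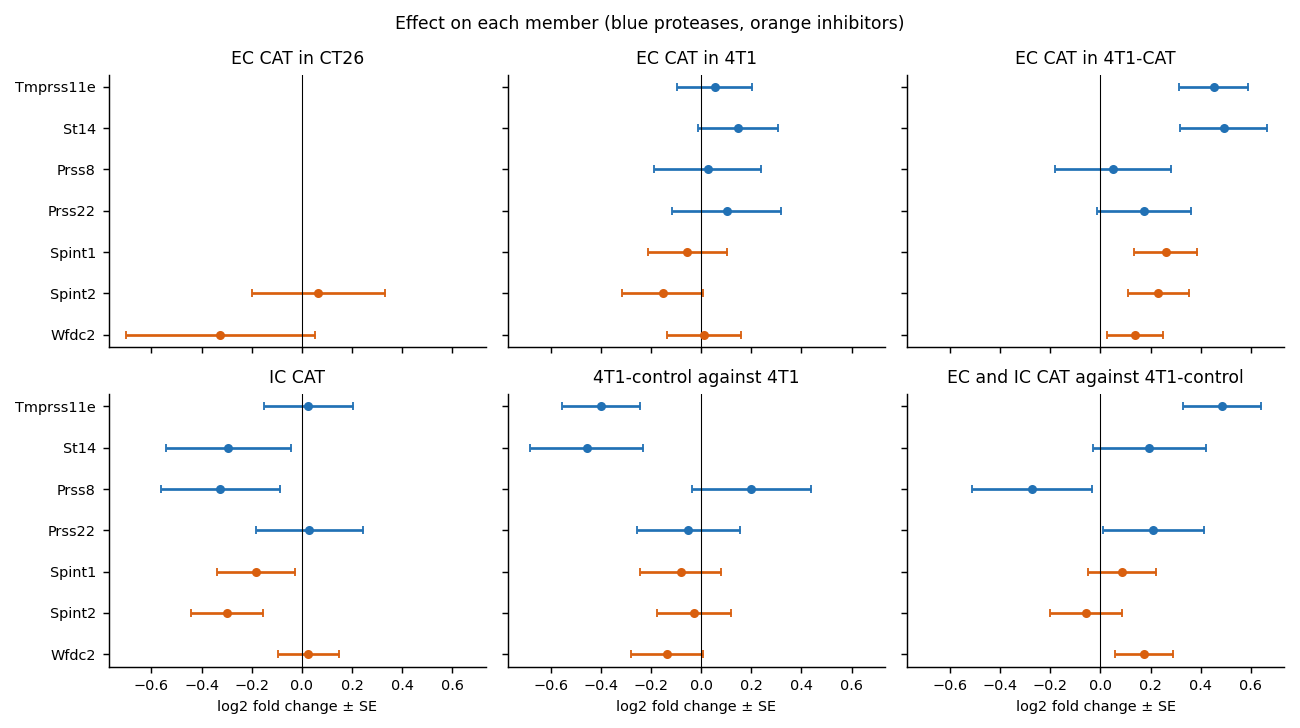
Log2 fold change of each gene with its SE (horizontal axis) in each of 6 comparisons, with proteases in blue and inhibitors in orange; genes that did not pass the filter on low counts are left out. All 7 points lie right of 0 for EC CAT in 4T1-CAT, and Tmprss11e is at -0.40 for 4T1-control against 4T1 and at 0.49 for combined EC and IC CAT against 4T1-control.

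IC CAT alone was examined as 4T1-CAT against 4T1-control, both with alum and DOX. Of the 7 changes, 4 were below 0, and the lowest were -0.33 for Prss8 (SE 0.24) and -0.30 for Spint2 (SE 0.14), on the log2 scale. Spint2 ran from 125 through a median of 179 to 227 CPM in 4T1-control and stood at 187, 161, 132, 162 and 146 CPM in 4T1-CAT, with wide overlap. Its adjusted p was 0.988 by the quasi-likelihood test of edgeR (Benjamini-Hochberg). St14 changed by log2 -0.29 (SE 0.25) in the fit, while its mean log2 CPM differed by 0.06 in the other direction, with the shallow control tumor (4.11 CPM) in the mean. Several marker lists of cells other than the tumor line were above 0 in this contrast, in 8 of 8 cases for fibroblasts (median log2 0.45), 8 of 8 for skeletal muscle (1.14), 6 of 6 for endothelial cells (0.36), 7 of 7 for neutrophils (0.58) and 5 of 5 for T cells (0.91), and epithelial markers in 3 of 10 (-0.04). The summed skeletal muscle markers ran from 162 to 460 CPM in 4T1-control and from 309 to 814 CPM in 4T1-CAT, and the part of these cells in the members' values was not tested. Of 12534 genes, 0 were called (0%), 637 (5.08%) had an unadjusted p under 0.05 and DESeq2 called 6.

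The GFP-only line was set against its parent to see what the vector, GFP and DOX carry with them. Tmprss11e ran from 32.8 through a median of 42.7 to 67.9 CPM in 4T1-control against 54.8 to 68.7 CPM in 4T1, both with alum. Only the highest 4T1-control tumor reached the 4T1 range, and the log2 change was -0.40 (SE 0.16), with an unadjusted p of 0.0192 and an adjusted p of 0.351 by the quasi-likelihood test of edgeR (Benjamini-Hochberg). St14 ran from 4.11 through a median of 18.0 to 30.9 CPM, and changed by log2 -0.46 (SE 0.23). Between tumors that shared a first index, the changes were log2 -0.37 for Tmprss11e and log2 -0.29 for St14. Epithelial markers were below 0 in 9 of 10 cases, with a median of log2 -0.34, and 6 of the 7 genes were below 0 where 47.9% of 12431 genes were above. Of these, 0 were called (0%), 1307 (10.5%) had an unadjusted p under 0.05 and DESeq2 called 16. Transduction, GFP expression, selection, sorting and the DOX diet cannot be told apart in this contrast.

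With EC and IC CAT together, against 4T1-control with alum, Tmprss11e was higher by log2 0.49 (SE 0.15), with an adjusted p of 0.128 by the quasi-likelihood test of edgeR (Benjamini-Hochberg). All 5 treated tumors (58.7 to 77.2 CPM) were above 5 of the 6 control tumors, and the sixth reached 67.9 CPM. The other 6 genes changed by log2 -0.27 (Prss8, SE 0.24) to log2 0.21 (Prss22, SE 0.20), with Wfdc2 at log2 0.17 (SE 0.12). Of 12781 genes, 3 were called (0.0235%), 2162 (16.9%) had an unadjusted p under 0.05 and DESeq2 called 510. The count of called genes was 575 without 4T1-control replicate 3 and 131 without replicate 2.

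Over the 5 groups of 4T1 origin the full order of the group means differed between genes. For each gene, the lowest mean was that of 4T1-control or 4T1-CAT, both with alum. 4T1-CAT with CAT-ABP + alum was highest for Tmprss11e, Spint1, Wfdc2 and Prss22, whereas 4T1-control was highest for Prss8. Tmprss11e was lowest in 4T1-control (45.2 CPM ± 12.8, SD, n = 6) and highest in 4T1-CAT with CAT-ABP + alum (66.9 CPM ± 7.73, n = 5). St14 was lowest in 4T1-CAT with alum (16.4 CPM ± 3.53, n = 5) and highest in 4T1 with CAT-ABP + alum (30.4 CPM ± 6.15, n = 6). Wfdc2 ran from 410 CPM ± 29.3 in 4T1-control to 481 CPM ± 39.4 in 4T1-CAT with CAT-ABP + alum, and Spint2 from 157 CPM ± 20.7 in 4T1-CAT with alum to 197 CPM ± 25.1 in 4T1 with alum. Spint1 stayed between 37.5 and 45.3 CPM, Prss22 between 12.2 and 14.7 CPM and Prss8 between 8.02 and 9.38 CPM. For each gene, neighbors in the order of group means had overlapping ranges, except at the step from CT26 to the lines of 4T1 origin.

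Technical spread was wide for several of the genes. Between the 2 technical libraries of a tumor the SD of log2 CPM was 0.81 for Spint1, 0.78 for Prss8 and 0.73 for Prss22, above their SD between summed tumors of a group (0.28, 0.39 and 0.32). It was likewise above for Tmprss11e (0.54 against 0.27) and St14 (0.61 against 0.52). For Tmprss11e, technical library 1 lay a mean of log2 0.40 above technical library 2. Spint1, with 5716 counts over the series, had a wider technical SD than St14 (0.61), with 3306. For Wfdc2 and Spint2, the most deeply counted of the set, the technical SD was 0.22 and 0.23, against 0.16 and 0.29 between tumors. The 2 measures are unlike. The technical SD is over single libraries, shallow ones included, and holds any mean shift between library 1 and library 2. The SD between tumors is over summed libraries. As an example of shallow libraries, both libraries of 4T1-control replicate 2 together held 493044 counts.

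Pairs of genes were compared over the 27 tumors of 4T1 origin as log2 CPM minus the group mean, with p-values from 100000 permutations within groups and adjusted over 21 pairs. Of these, 1 pair passed, the protease St14 with its inhibitor Spint2. Pearson's r was 0.73 (permutation adjusted p = 0.00021) and Spearman's rho 0.82 (permutation adjusted p = 0.00021), both from the smallest p the permutations can give, 1e-05. The r was 0.73 again without the 2 tumors farthest from the median of St14, 0.85 among the 19 tumors that share 1 first index and 0.75 among the 8 that share the other. Both genes also moved with sequencing depth: the log2 total count had r = 0.59 with St14 and 0.68 with Spint2, and the pair's r was 0.55 once depth was regressed out. That r of 0.55 was not tested, and the permutation p-values are for the r before this step. Genes outside the set had higher r, up to 0.96 with St14 (Uck2) and 0.95 with Spint2 (Ubald2). How many of 12759 other genes reach r = 0.73 with either was not counted, so the r is not shown to be particular to this pair. St14 with Spint1 had r = 0.68 (permutation adjusted p = 0.0881), which fell to 0.26 without the 2 farthest tumors and so rests on them. Over all 21 pairs r ranged from -0.10 to 0.73 with a median of 0.22, and St14 and Prss8, enzyme and substrate, had r = 0.25 (permutation adjusted p = 0.55).

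**Figure D4:**
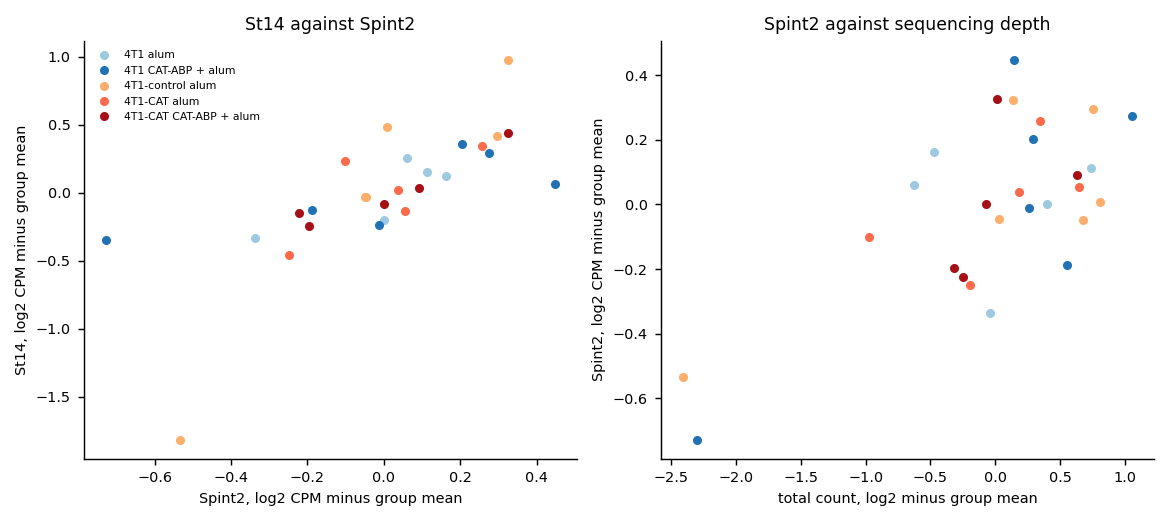
Left, St14 against Spint2 in 27 tumors of 4T1 origin, each as log2 CPM minus its group mean; right, Spint2 against the log2 total count minus its group mean. Points are tumors colored by group; the left panel rises with r = 0.73, the right with r = 0.68, and the 2 shallowest tumors have the lowest Spint2.

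The genes most like each member were sought by Pearson's r over the same 27 tumors among 12759 others, as a description. For St14 they were Uck2 (0.96), Mcl1 (0.96) and Tnfaip1 (0.94), and for Spint2 Ubald2 (0.95), Pcbp2 (0.94) and H1f0 (0.94). Wfdc2 was most like Fam162a (0.86), Ldha (0.84) and Eno1b (0.78), which encode a hypoxia-regulated mitochondrial protein and glycolytic enzymes. Spint1 was nearest to Arih2 (0.86), Tubgcp5 (0.84) and Caskin2 (0.84), and Prss8 to Zfp317 (0.85), Klhl15 (0.78) and Ap4s1 (0.77). Prss22 was nearest to Prg4 (0.71), Anxa8 (0.69) and Enpp1 (0.66), and Tmprss11e to Ulbp1 (0.73), Wdfy1 (0.73) and Phf14 (0.72). With the 10 epithelial markers in that table, the median r was 0.66 for St14, 0.60 for Spint1 and 0.58 for Spint2, and 0.10 for both Tmprss11e and Wfdc2. The median r with all genes was 0.23, 0.12, 0.27, 0.06 and 0.05 in that order, and all of these points share the library depth described above.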

How the data were processed

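RNA of whole tumors was sequenced with a 3′ digital gene expression protocol (HT3DGE, modified from SCRB-seq). The deposited values are estimated counts per gene and library, made by the authors with the Smart-seq2 pipeline on Terra, without normalization, and 39.7% of non-zero values are not whole. The aligner, the genome build and the use of molecular identifiers and strand are not given in the sources used here. The 2 technical libraries of each of 38 tumors were summed and rounded. Library totals ran from 46233 to 6958626 and tumor totals from 493044 to 9077549. That the replicates came from separate mice follows from the labels, which number them as biological replicates. Of 55536 gene identifiers, 55450 were matched to GENCODE M21 (GRCm38), which gave the coordinates; promoter sequences are from RefSeq.

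Genes that passed edgeR's filter on low counts were tested by the quasi-likelihood method (edgeR 4.0.16, limma 3.58.1, R 4.3.3) with trimmed mean of M-values scaling, each comparison fitted on its own groups, and Benjamini-Hochberg adjustment over all genes tested at 0.05. DESeq2 1.42.0 was an alternative. The SE given with a log2 difference or change is its absolute value divided by the square root of the F statistic of that test. Log2 CPM used a prior count of 2. Scripts were tested on simulated counts. Permutation tests used Python 3.11.15 and scipy 1.17.1.

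The members and gene lists were chosen with earlier results of these data known. The named genes are the 7 members, 15 genes fixed by role (Tmprss2, Tmprss4, Hpn, Klk10, Plau, Slpi, Serpinb5, Scnn1a, F2rl1, Epcam, Met, Grhl2, Elf3, Ovol2 and Esrp1), any wider-list gene called in a tested comparison (there was none), and for each member the 3 genes with the highest Pearson's r among genes with a mean of at least 10 counts. Krt7, Krt8, Krt18, Cldn7, Fn1, Tfpi2, Wfdc17, Serpine2, Spink10, Serpinb1a, Serpinb6a, the lower mesenchymal regulators and Kat8 were named after their values were seen, and a further epithelial marker counted in the marker sums is not reported here. Alternatives were normalization by relative log expression, no filter, 1 model over all groups, a replicate block, single technical libraries, removal of libraries under 0.25 of the median depth, and leaving out each tumor; libraries sharing an index were treated as a further alternative chosen after seeing the data.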

Additional observations from a re-analysis of the deposited data

Results flagged for a closer look

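In 39 combinations of gene and group with enough counts, the highest or lowest tumor was compared with the rest by Dixon's ratio, on log2 CPM. Chance flags about 1 in 20 groups, and 4 tumors stood apart, each as the lowest of its group. In 4T1-control, replicate 2 had 4.11 CPM of St14 and 22.6 CPM of Spint1, with the next lowest tumors at 15.1 CPM and 39.0 CPM; these values rest on 2 and 11 counts in the shallowest tumor of the series. In 4T1-CAT with CAT-ABP + alum, replicate 1 had 4.86 CPM of Prss8, on 28 counts, with the next at 8.35 CPM. In the same group replicate 4 had 414 CPM of Wfdc2, on 4015 counts, with the next at 488 CPM.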

How the results depend on the processing

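All 7 genes were higher in 4T1 than in CT26 without overlap under every alternative run, leave-one-out and the shared first index included. No member tested in the main fit of a comparison passed the adjusted threshold there under any alternative run. For EC CAT in CT26 this covers Spint2 and Wfdc2, and the other 5 genes were not followed under the alternatives. The size of the difference between the lines with alum moved for genes with few CT26 counts. With a prior count of 0.5 in place of 2, the log2 CPM difference was 7.47 for Tmprss11e (6.56 with 2), 5.54 for Prss8 (4.08) and 5.96 for Prss22 (4.55), and with technical replicate 2 alone it was 5.32, 2.91 and 3.35. Depth limits the rest: in CT26, 5 of the 7 genes were under the filter, and the interaction for Prss8 and Prss22 rests on 5 counts each in CT26 with alum. The cause of each change below was not tested.

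DESeq2 called 1 gene for EC CAT in CT26, 266 for EC CAT in 4T1-CAT, 6 for IC CAT, 16 for 4T1-control against 4T1 and 510 for combined CAT against 4T1-control, where edgeR called 3 for the last and 0 for the others. Without the filter on low counts, edgeR called 1 for EC CAT in CT26, 16 for EC CAT in 4T1, 47 for EC CAT in 4T1-CAT, 131 for IC CAT, 130 for 4T1-control against 4T1, 532 for combined CAT and 2 for the interaction. 1 model over all 7 groups called 10 for 4T1-control against 4T1 and 31 for combined CAT, and removal of low-depth libraries called 14 and 142. Technical replicate 1 alone called 0 and technical replicate 2 alone 1 for combined CAT. Between tumors with a shared first index 1 was called for 4T1-control against 4T1, and without the libraries listed with the same index tag 1 for IC CAT. Leaving out 1 tumor gave 0 to 1 for EC CAT in 4T1-CAT, 0 to 1 for IC CAT, 0 to 6 for 4T1-control against 4T1 and 0 to 575 for combined CAT.

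Replicate numbers did not pair the tumors (the correlation of same-numbered tumors ran from -0.29 to 0.33, and in no comparison did every pair pass 0.1). With the replicate block, 3 genes were called for EC CAT in 4T1-CAT and 1 for combined CAT. In the block fit, the changes that reversed were log2 -0.0177 for Prss8 with EC CAT in 4T1, -0.0184 for Tmprss11e with IC CAT and 0.0197 for Spint2 with combined CAT.

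Changes also reversed elsewhere, and not all of them were close to 0 in the main fit. In that fit the interaction was log2 0.34 for Spint1 and 0.25 for Prss22. Combined CAT was there at log2 0.21 for Prss22 and 0.20 for St14, and EC CAT in 4T1-CAT at 0.17 for Prss22. The reversed values follow, on the log2 scale. With technical replicate 1 alone they were -0.0754 (Prss22) and 0.00295 (Spint1) for EC CAT in 4T1, -0.162 (Tmprss11e), -0.221 (Prss22) and -0.00876 (Wfdc2) for IC CAT, 0.341 (Prss22) and 0.0185 (Spint1) for 4T1-control against 4T1, -0.119 (Prss22) for combined CAT and -0.786 (Prss22) for the interaction. With technical replicate 2 alone they were -0.0131 (Tmprss11e), -0.0289 (St14) and -0.125 (Prss8) for EC CAT in 4T1, -0.440 (Prss8) and -0.0975 (Prss22) for EC CAT in 4T1-CAT, 0.130 (Prss22) for 4T1-control against 4T1, -0.347 (St14) and -0.0610 (Prss22) for combined CAT and -0.697 (Spint1) for the interaction. Without low-depth libraries they were -9.96e-05 (Wfdc2) for EC CAT in 4T1 and 0.0264 (Spint2) for 4T1-control against 4T1. Between tumors with a shared first index they were -0.0497 (St14) for EC CAT in 4T1, and 0.0716 (Spint1) and 0.0878 (Spint2) for 4T1-control against 4T1, and without the libraries listed with the same tag -0.000514 (Wfdc2) for IC CAT.

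Leaving out 1 tumor at a time also reversed some changes, among them the interaction for Prss8, which was log2 -0.50 in the main fit. The ranges were -0.0431 to 0.200 for Spint2 with EC CAT in CT26, and for EC CAT in 4T1 -0.0596 to 0.108 (Tmprss11e), -0.0761 to 0.152 (Prss8), -0.0974 to 0.199 (Prss22), -0.162 to 0.0192 (Spint1) and -0.0843 to 0.0846 (Wfdc2). They were -0.0419 to 0.198 for Prss8 with EC CAT in 4T1-CAT, -0.0737 to 0.178 (Tmprss11e) and -0.0930 to 0.138 (Prss22) for IC CAT, -0.124 to 0.0736 (Prss22), -0.193 to 0.0206 (Spint1) and -0.0964 to 0.0455 (Spint2) for 4T1-control against 4T1, and -0.142 to 0.00562 for Spint2 with combined CAT. For the interaction they were -0.987 to 0.909 (Prss8), -0.255 to 1.2 (Prss22) and -0.0754 to 0.687 (Spint1).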
